A study of Mus musculus with 4 samples.

Results

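This account follows 33 genes of peroxisome biogenesis, peroxisomal transport and ether lipid synthesis, chosen by name from 37000 genes and transcripts on the array. They comprise the peroxins that build the organelle, the carriers and channels of its membrane, enzymes of ether lipid synthesis, antioxidant enzymes of the matrix, and matrix enzymes of lipid metabolism with their protease. All 33 had a probe, 61 probes in all. Of the 33, 31 were well above background on all 4 arrays, and Abcd2, a fatty acyl-CoA transporter, and Far2, a fatty acyl-CoA reductase, were not well above background on any.

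Total RNA of the mouse macrophage line RAW264.7 was hybridised to 1-colour arrays, 1 array in each of 4 groups. The groups were wild-type cells without lipopolysaccharide (LPS), wild-type cells with LPS, Mfp2-/- cells without LPS and Mfp2-/- cells with LPS. Mfp2, encoded by Hsd17b4, is a multifunctional enzyme of peroxisomal beta-oxidation, and Mfp2-/- cells are called knockout cells here. LPS is the bacterial outer membrane component used to activate macrophages. How the knockout line was made, whether it is a single clone, and at what dose and for how long LPS was applied, the labels do not say.

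Peroxisomes are single-membrane organelles that shorten very long and branched fatty acids, remove hydrogen peroxide and carry out the first steps of ether lipid (plasmalogen) synthesis. They take up folded matrix proteins from the cytosol through receptors that dock at the membrane, release their cargo and are returned by ubiquitination and extraction. In macrophages, LPS shifts metabolism and lipid handling widely, and ether lipids are abundant in their membranes.

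Values are log2 of the probe signal over that array's 75th percentile, called the level below, and differences between arrays are differences of these levels. A level compares arrays for 1 probe and cannot be compared between genes. Calls were made at a 2-fold difference or more, that is 1 on the log2 scale. Since each group is a single array, differences between arrays carry no p-value and no check by replicates. The error printed as ± is the SD expected of a difference from replicate spots within arrays, between 0.07 and 0.21 for the comparisons of pairs of arrays. It covers spotting and scanning but no spread between cultures. At levels under 0, and again from 0 to 4, it rests on only 5 to 8 replicated probes per array. Above 4 it rests on 269 to 271. A limma fit of genotype and LPS across all 4 arrays left 1 residual degree of freedom, took the response of both genotypes as alike, and gave adjusted p-values over 17361 genes. In this fit wild type and knockout serve as the replicates of the LPS effect. Nothing in the labels says that the arrays came from separate cultures. "Rose" and "fell" are kept for genes past 2-fold or with an adjusted p under 0.05 in that fit.

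The targeted gene was checked first. The Hsd17b4 level was 3.65 in wild type and 2.78 in knockout without LPS, and 3.18 and 2.004 with LPS. The knockout signal was thus 55.0% of wild type without LPS and 44.4% with LPS, and the probe stayed well above background in both knockout arrays. Whether that probe lies in the altered part of the gene is not known here, so it says little about the labels. Per array, 47.4% to 49.7% of spots passed the background flag and 0 were saturated. Of 12 macrophage markers, 11 were above background in wild type without LPS and 12 on the other arrays, with summed signals between 391724 and 447255. The lists of B cell, fibroblast, epithelial and hepatocyte markers had 0 or 1 of 4 above background on any array. Of 4 T cell markers, Cd3e and Cd4 were above background on all arrays, with summed signals of the list between 680 and 748. Il1b, Nos2 and Tnf, inflammatory genes that LPS induces in macrophages, checked the treatment. Il1b had levels of -4.91 and -5.11 without LPS, not well above background, and 7.84 and 7.70 with LPS, in wild type and knockout respectively. Nos2, the inducible nitric oxide synthase, differed by 7.64 in wild type and 7.44 in knockout.

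With LPS, a small number of the 31 measurable genes changed by 2-fold, in both directions. In wild type 1 rose, Prdx5, and 1 fell, Pxmp2. Among the 18196 genes tested there, 9.71% were higher and 8.58% lower by 2-fold. In knockout 2 rose, Prdx5 and Tmem189, and 3 fell, Pex10, Pxmp2 and Pxmp4, beside 11% higher and 12.5% lower among 18386 genes. These member counts were no larger a share than the background: 3.23% and 3.23% of the members in wild type, and 6.45% and 9.68% in knockout. At 1.5-fold, 5 members were higher and 6 lower in wild type, 16.1% and 19.4%, against backgrounds of 17.7% and 17.5%. In knockout 2 were higher and 9 lower at 1.5-fold, 6.45% and 29.0%, against 20.2% and 22.3%. The median LPS difference of the members was 0.11 in wild type and 0.08 in knockout, and that of all genes tested was 0.01 in both. Centring the arrays on spike-in RNA in place of the 75th percentile moved the median of all genes to -0.20 in wild type and -0.22 in knockout, and that of the members to -0.10 and -0.15. A small positive LPS difference is therefore one relative to the array's other genes, and turns negative under that scaling when it is under about these shifts.

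In the limma fit across all genes, 11.3% of genes rose and 11.3% fell with LPS at an adjusted p under 0.05. Among the members, 2 rose and 4 fell. Prdx5 (1.86, SE 0.14, adjusted p = 0.025) and Tmem189 (1.02, SE 0.12, adjusted p = 0.032) rose in both genotypes. Pex10 (-1.04, SE 0.15, adjusted p = 0.036), Pxmp2 (-1.65, SE 0.28, adjusted p = 0.045), Agps (-0.69, SE 0.12, adjusted p = 0.049) and Pex26 (-0.73, SE 0.13, adjusted p = 0.049) fell in both genotypes. Pxmp4 and Eci2 lay just outside, with limma adjusted p of 0.050 and 0.052. Agps and Pex26 lay just inside, and both left the list under median centring and with the mean of probes. Pex26 also left it with quantile normalization and with the deposited table, where Eci2 took its place. With normexp, the stricter filter or the trended prior, Pex5 and Pex16 joined the genes that rose, and Pxmp4, Eci2 and Gnpat those that fell.

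**Figure D1:**
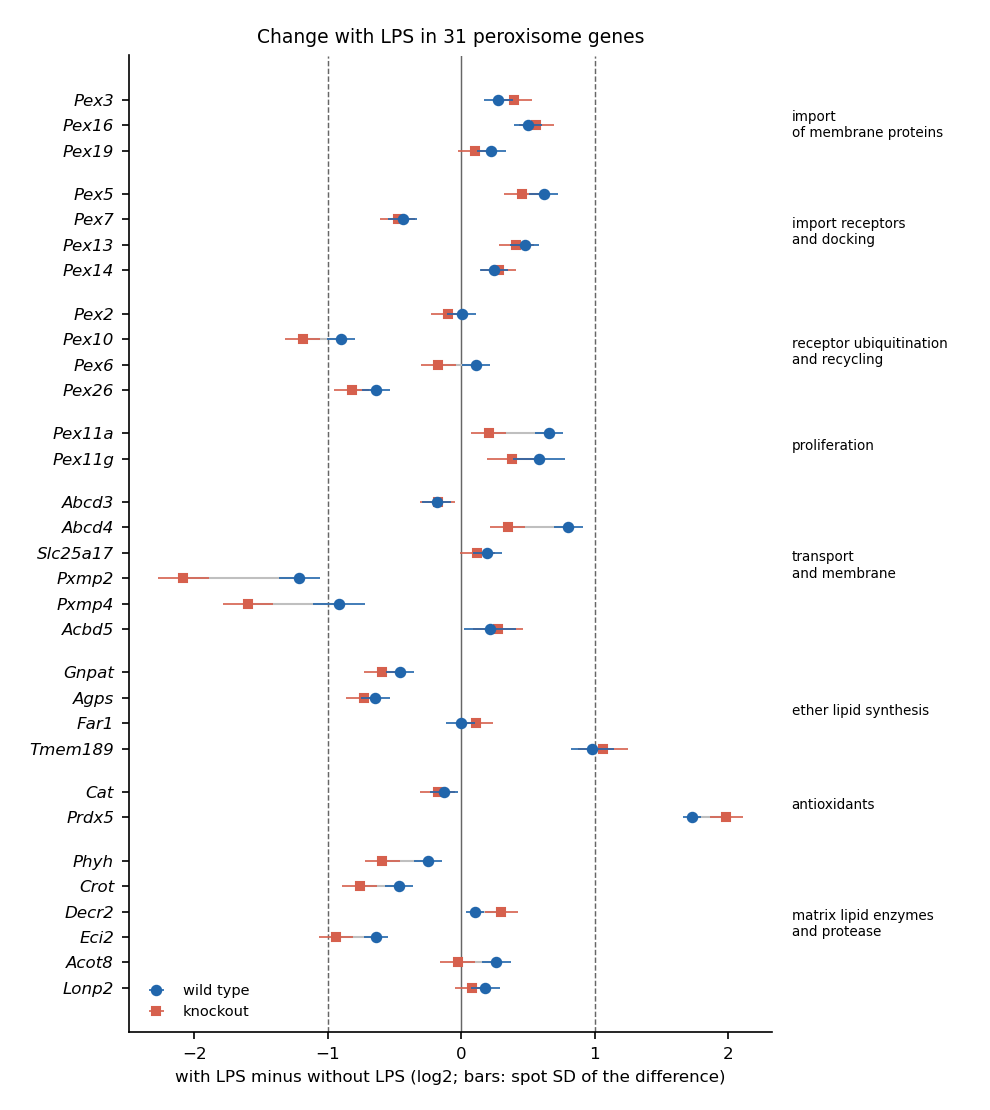
Difference with LPS minus without LPS, log2, for the 31 members above background on all 4 arrays, grouped by role, in wild type (blue circles) and knockout (orange squares). Each point is 1 array minus 1 array, bars are the replicate-spot SD of the difference and dashed lines mark 2-fold; Prdx5 lies far to the right and Pxmp2 and Pxmp4 to the left in both genotypes, while small positive values turn negative when arrays are centred on spike-ins.

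The first peroxins place membrane proteins into the peroxisome. Pex19 is the cytosolic chaperone of these proteins, Pex3 its docking site and Pex16 a membrane partner of Pex3. None of the 3 passed 2-fold or the limma fit. Pex16 came nearest. Its levels were 1.83 and 2.33 in wild type without and with LPS, and 2.0004 and 2.56 in knockout. Both LPS arrays were thus above both arrays without LPS, by 0.50 ± 0.11 in wild type and 0.56 ± 0.13 in knockout, and a second Pex16 probe gave 0.46 and 0.56. The limma LPS term of Pex16 had an adjusted p of 0.069. Pex3 differed by 0.28 and 0.40, and its second probe by 0.79 and 0.64. Pex19 differed by 0.22 and 0.10, the latter of the other sign when arrays were centred on spike-ins.

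Pex5 and Pex7 are the soluble receptors that bring matrix proteins with C-terminal and N-terminal targeting signals, and Pex13 and Pex14 are their docking site. The 2 receptors differed with LPS in opposite directions, though neither passed 2-fold or the limma fit at its main setting. Pex5 levels were 0.99 and 1.60 in wild type, and 0.98 and 1.43 in knockout. Pex7 levels were 2.01 and 1.57 in wild type, and 2.28 and 1.81 in knockout. Pex5 was thus above its level without LPS in both genotypes, by 0.62 ± 0.11 and 0.45 ± 0.13, and Pex7 below it by amounts of -0.44 ± 0.11 and -0.47 ± 0.13. These signs held under all 8 other settings in which the values were recomputed. The limma adjusted p was 0.074 for Pex5 and 0.085 for Pex7. Of the docking proteins, Pex13 differed by 0.47 and 0.41 and Pex14 by 0.24 and 0.28.

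Pex2 and Pex10 are RING subunits of the ubiquitin ligase that marks receptors for return, Pex6 is a subunit of the ATPase that pulls them out and Pex26 anchors that ATPase. Pex10 and Pex26 fell with LPS and the other members of this group did not pass. Pex10 levels were 1.01 without and 0.11 with LPS in wild type, and 1.43 without and 0.25 with LPS in knockout. The arrays with and without LPS did not overlap for Pex10, and the fall was 1.87-fold in wild type (-0.90 ± 0.11) and 2.28-fold in knockout (-1.19 ± 0.13). Pex26 levels were 1.42 and 0.78 in wild type, and 1.26 and 0.44 in knockout, a difference of -0.64 ± 0.11 and -0.82 ± 0.13. A second, dimmer Pex26 probe gave -0.32 and -0.33. Pex2 differed by 0.00 and -0.10 and Pex6 by 0.11 and -0.17, within 1.5 of their spot SDs. Other probes gave -0.21 and -0.39 for Pex2, and -0.10 and -0.07 as well as 0.13 and 0.17 for Pex6, so that no direction is given for either. The 2 ligase subunits on this list thus had unlike values on the same arrays.

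Pex11a and Pex11g belong to the family that elongates peroxisomes before they divide. Pex11a levels were 1.56 and 2.22 in wild type, and 1.64 and 1.85 in knockout. The wild-type LPS array stood above the other 3, by 0.66 ± 0.11 against its own control, while the knockout difference was 0.20 ± 0.13 and turned to -0.03 on spike-in centring. The probe used for Pex11g gave 0.58 ± 0.19 and 0.38 ± 0.19, with an adjusted p of 0.092 in the limma fit. Another Pex11g probe above background on all arrays gave -0.44 in wild type and 0.56 in knockout, so no direction is given for this gene.

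The membrane group held the members with the largest falls, Pxmp2 and Pxmp4. Pxmp2 forms a channel for small solutes in the peroxisomal membrane, and Pxmp4 is an integral protein of the same membrane. The Pxmp2 level was 0.32 in wild type without LPS and -0.90 with LPS, and -0.03 and -2.11 in knockout. The knockout array with LPS was the lowest of the 4, and the LPS fall was 2.32-fold in wild type (-1.21 ± 0.15) and 4.23-fold in knockout (-2.08 ± 0.19). Among all genes tested, these values lay at the 5.91 and 2.27 percentiles. With normexp background correction, which pulls low signals together, the falls were smaller: -0.93 in wild type, no longer 2-fold, and -1.32 in knockout.

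The Pxmp4 level was -0.42 in both untreated arrays, -1.33 in wild type with LPS and -2.01 in knockout with LPS. The untreated arrays were alike and both LPS arrays were below them, by 1.89-fold in wild type (-0.91 ± 0.19) and 3.03-fold in knockout (-1.60 ± 0.19). Its second probe, dimmer and placed 5′ of the first on the minus strand, did not follow: it differed by 0.22 ± 0.19 and 0.14 ± 0.19. The fall of Pxmp4 therefore rests on 1 of 2 probes, and their mean gave -0.35 and -0.73. The first 30 of 60 bases of the 3 probes are shown because these probes carry the falls of the group or disagree with it. In mm9, the Pxmp2 probe is at chr5:110703365-110703424, the Pxmp4 probe that fell at chr2:154412936-154412995, and the Pxmp4 probe that did not at chr2:154421204-154421263, all on the minus strand.
Pxmp2 probe: cttcagagagtcttggtggagttagtctaa
Pxmp4 probe that fell: aggatcctatcaccagcactgagaataaaa
Pxmp4 probe that did not: atctcattacggatggttgtgagccctcag

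The other carriers of the membrane differed by under 2-fold. Abcd3, the transporter of branched and dicarboxylic acyl-CoA, differed by -0.18 and -0.18. Slc25a17, a carrier of coenzyme A and related cofactors, differed by 0.19 and 0.12, and Acbd5, which tethers peroxisomes to the endoplasmic reticulum, by 0.22 and 0.28. On spike-in centring the Slc25a17 values turned negative. Abcd4 is named with this family but is known as a lysosomal protein of cobalamin transport. Its levels were 2.91 and 3.71 in wild type, and 2.68 and 3.02 in knockout. The wild-type LPS array was the highest, 0.80 ± 0.11 above its control, and the knockout difference was 0.35 ± 0.13.

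**Figure D2:**
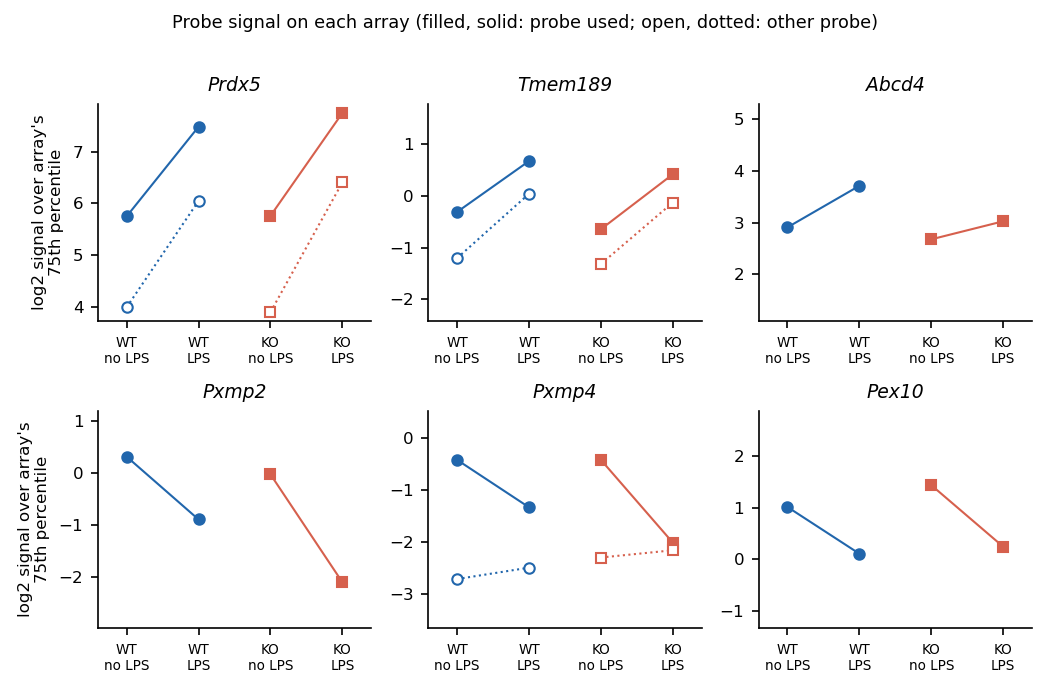
Level (log2 signal over the array's 75th percentile) on each of the 4 arrays for 6 members; WT is wild type, KO knockout, each point 1 array, filled points the probe used and open points the other probe of the gene. Both Prdx5 probes and both Tmem189 probes are higher with LPS, while the second Pxmp4 probe stays between -2.71 and -2.16 as the first falls from -0.42.

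In ether lipid synthesis, the enzymes of the peroxisomal matrix and the enzyme of the last step had opposite values. Gnpat makes the first acylated intermediate and Agps swaps its acyl chain for an alkyl chain, both in the peroxisome. Agps fell: its levels were 3.33 and 2.68 in wild type, and 3.37 and 2.64 in knockout, a difference of -0.64 ± 0.11 and -0.73 ± 0.13. The arrays with and without LPS did not overlap, and the genotypes lay within 0.05 of each other in either state. A dimmer Agps probe gave -0.41 and -0.16. Gnpat levels were 2.88 and 2.42 in wild type, and 3.15 and 2.55 in knockout, that is -0.46 ± 0.11 and -0.59 ± 0.13. The other 2 Gnpat probes gave -0.66 and -0.94, and -0.44 and -0.45. All 3 Gnpat probes were thus lower with LPS in both genotypes, but the limma adjusted p was 0.074.

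Tmem189 encodes the desaturase that forms the vinyl ether bond of plasmalogens, in the endoplasmic reticulum. It rose with LPS. Its levels were -0.31 and 0.67 in wild type, and -0.65 and 0.41 in knockout. Both LPS arrays were above both controls, by 1.98-fold in wild type (0.98 ± 0.16) and 2.09-fold in knockout (1.06 ± 0.18), so that wild type fell just short of 2-fold. The second probe gave 1.24 and 1.19, 2-fold in both genotypes. Centring on spike-ins lowered the values of the first probe to 0.77 and 0.83.

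Far1 supplies the fatty alcohol for this pathway and is its rate-limiting enzyme. Its 5 probes above background gave different answers, alike in both genotypes: positive at the first 3, near 0 at the fourth and negative at the fifth. In mm9 they start on the plus strand of chromosome 7 and are listed from the 5′ to the 3′ end. The first, chr7:120684214-120690963, spans an intron and differed by 0.67 ± 0.19 in wild type and 0.76 ± 0.19 in knockout. The second, chr7:120697250-120697309, differed by 1.13 ± 0.19 and 1.41 ± 0.19. The third, chr7:120710009-120711650, again spans an intron and differed by 1.34 ± 0.11 and 1.58 ± 0.13. Up to here the probes were higher with LPS in both genotypes. The fourth, chr7:120714127-120714186, was the brightest and stands for the gene in the counts, with -0.01 ± 0.11 and 0.11 ± 0.13. The fifth, chr7:120714798-120714857, differed by -0.81 ± 0.11 and -0.83 ± 0.13, so that the sign turned within less than 5 kb. Which exon or untranslated part the probes lie in was not assigned, since no annotation of mm9 was used here. The sequences are shown because these probes would each give another verdict on the gene.
Far1 probe 1: tgaaaatttaagagatgctgtccagttaaa
Far1 probe 2: ttactggattgctgtaagccataaggcccc
Far1 probe 3: tcggaagcatctcaacaagttgcggaatat
Far1 probe 4: catgaccgggtcatatgttgtttgacttaa
Far1 probe 5: tggggttagagtgtaaatggctttgtaagc

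The signals behind these values were 934.7 and 2139 in wild type and 842.8 and 2065 in knockout for probe 3, and 1191 and 614 in wild type and 1466 and 679 in knockout for probe 5. Neither of these probes is near the background, where small signals would make large ratios. Probes 1 and 2 were dimmer. Probe 1 had signals of 43.8 and 62.8 in wild type and 41.1 and 57.2 in knockout. Probe 2 had 119 and 236 in wild type and 112 and 244 in knockout. No direction is given for Far1 as a gene, and its transcripts that end at different sites were not told apart here.

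**Figure D3:**
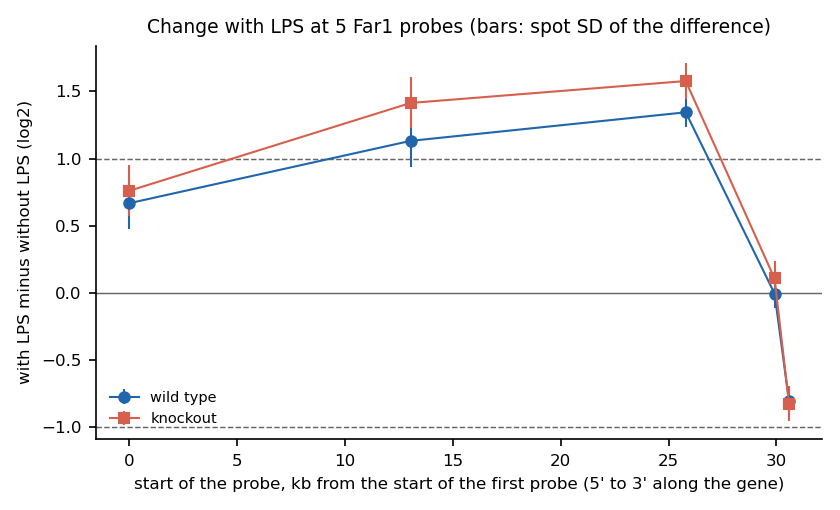
LPS difference (log2) at the 5 Far1 probes above background on all arrays against the start of the probe in kb from the first, in wild type (blue circles) and knockout (orange squares); each point is 1 array minus 1 array, bars are the replicate-spot SD and dashed lines mark 2-fold. The first 3 probes lie between 0.67 and 1.58 and the last at -0.81 and -0.83, with the genotypes close together throughout.

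Among the antioxidants, Prdx5 gave the largest rise of the list and catalase stayed close to its untreated level. Prdx5 is a peroxiredoxin found in peroxisomes, mitochondria and the cytosol, so its level is not that of a peroxisomal enzyme alone. Its levels were 5.75 and 7.48 in wild type, and 5.76 and 7.75 in knockout. The untreated arrays were alike and both LPS arrays far above them, by 3.32-fold in wild type (1.73 ± 0.07) and 3.96-fold in knockout (1.98 ± 0.12). The second probe gave 2.05 and 2.50. Over the alternatives that used the first probe alone, its rise stayed between 1.51 and 1.76 in wild type and between 1.74 and 2.01 in knockout. The mean of both probes gave 1.89 and 2.24. Among all genes tested it stood at the 95.9 and 96.5 percentiles. Cat, catalase, had levels of 2.11 and 1.98 in wild type, and 2.22 and 2.04 in knockout. Its differences of -0.13 ± 0.11 and -0.18 ± 0.13 were near the spot error. The Prdx5 probes lie in mm9 at chr19:6981197-6981256 and chr19:6981371-6981430 on the minus strand, and their first 30 bases are shown since both carry the rise.
Prdx5 probe used: gagccacgtaaatggaaccttgaccatatt
Prdx5 second probe: tgatagacaacggcatagtgaaggcactga

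The matrix enzymes of lipid metabolism and their protease had no member past 2-fold and none past the limma fit. Eci2, an isomerase for unsaturated fatty acids, came nearest, with levels of 4.05 and 3.41 in wild type and 4.06 and 3.12 in knockout. Its differences were -0.64 ± 0.09 and -0.94 ± 0.13, and its second probe gave -0.82 and -1.04, the latter past 2-fold. Crot, which passes shortened acyl chains to carnitine for export, had levels of 0.56 and 0.09 in wild type and 0.97 and 0.21 in knockout. Both LPS arrays were below both controls, by -0.47 ± 0.11 and -0.76 ± 0.13. Phyh, the hydroxylase that begins the oxidation of phytanic acid, differed by -0.25 ± 0.11 and -0.59 ± 0.13, and its second probe by -0.27 and -0.55. The remaining members of this group were close to their controls. Decr2, a reductase for unsaturated acyl-CoA, differed by 0.10 and 0.30, Acot8, an acyl-CoA thioesterase, by 0.26 and -0.03, and Lonp2, the peroxisomal Lon protease, by 0.18 and 0.08.

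Without LPS, every measurable member differed between knockout and wild type by under 1.5-fold. At 2-fold 0 members were higher and 0 lower, where 3.08% and 3.89% of 18396 genes were. At 1.5-fold the members again gave 0 and 0, beside 7.32% and 7.45% of genes. By sign alone, 24 members were above 0 and 7 below, where 58.2% of all genes were above 0. Median centring gave 21 above 0, beside 51.9% of all genes, and the mean of probes 18, beside 53.0%. These shares were not tested. The values ran from -0.34 for Pxmp2 to 0.44 for Pex11g, with a median of 0.12 beside 0.05 over all genes. The other Pex11g probe above background on all arrays gave -0.34, so no direction is given for this gene. Of 16 members with 2 or more probes above background on all arrays, 7 had the same sign at all of them. Besides Pex11g, the highest were Pex10 and Crot, at 0.42 ± 0.11 each, and besides Pxmp2 the lowest was Tmem189, at -0.33 ± 0.21. A second, dimmer Crot probe gave 0.56. Prdx5 (0.01), Pxmp4 (0.00), Eci2 (0.01) and Pex5 (-0.01) had nearly the same level in both genotypes.

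With LPS, 1 member differed between the genotypes by 2-fold. Pxmp2 was 2.32-fold lower in knockout (-1.21 ± 0.17), and 0 members were higher, beside 4.39% of 17725 genes lower and 1.86% higher. With normexp background correction Pxmp2 differed by -0.66, under 2-fold. At 1.5-fold 3 members were lower, Abcd4 (-0.68 ± 0.13), Pxmp4 (-0.68 ± 0.17) and Pxmp2, and 0 were higher, beside 9.61% and 6.24% of genes. For Pxmp4 the second probe gave 0.34. The 3 are 9.68% of the members, near the 9.61% of all genes. They are listed in the membrane group, though Abcd4 is known as a lysosomal protein, and the group was not tested. Its other measured members Abcd3, Slc25a17 and Acbd5 differed by 0.28, 0.05 and 0.16. In the limma fit the genotype term called 0% of genes higher and 0% lower at an adjusted p under 0.05. At an unadjusted p under 0.05 limma gave 844 higher and 863 lower, with 0 members in either direction. At the adjusted p under 0.05, normexp gave 14 higher and 43 lower genes, the stricter filter 1 and 10 and the trended prior 24 and 67, each with 0 members.

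**Figure D4:**
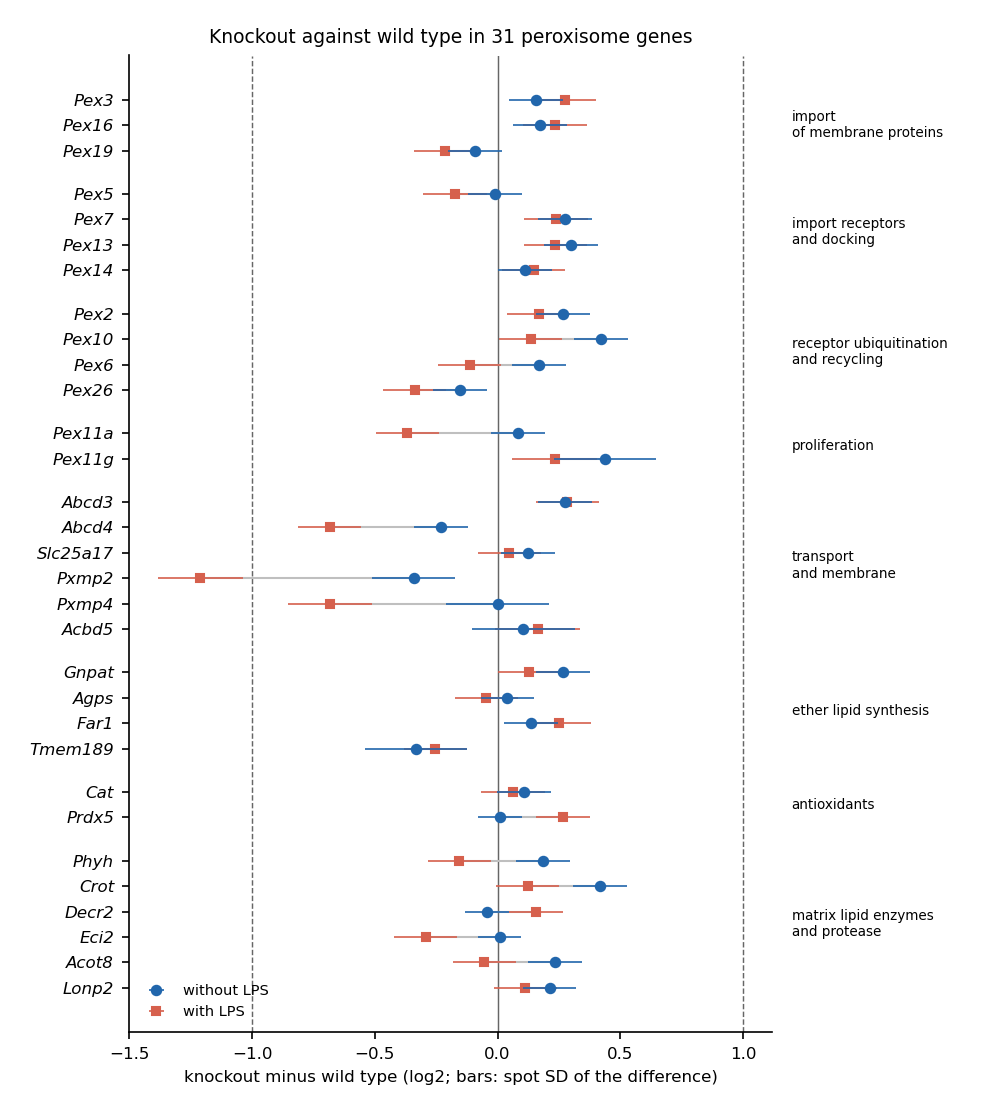
Difference knockout minus wild type, log2, for the same 31 members without LPS (blue circles) and with LPS (orange squares); each point is 1 array minus 1 array, bars are the replicate-spot SD and dashed lines mark 2-fold. Without LPS all points lie between -0.34 and 0.44; with LPS Pxmp2 passes the line at -1.21, and Abcd4 and Pxmp4 follow at -0.68.

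The difference of the LPS responses, knockout minus wild type, was under 2-fold for every member: 0 were higher and 0 lower, beside 1.69% and 2.91% of 15513 genes above background on all arrays. At 1.5-fold 0 were higher and 2 lower, Pxmp2 (-0.87 ± 0.24) and Pxmp4 (-0.68 ± 0.27), beside 5.72% and 8.24%. Their percentiles among all genes were 3.94 and 6.34. With normexp background correction the differences for Pxmp2 and Pxmp4 shrank to -0.39 and -0.42, both under 1.5-fold. The second Pxmp4 probe gave -0.08, and the mean of the Pxmp4 probes -0.38. After these 2 members at the main setting came Abcd4 (-0.45 ± 0.17) and Pex11a (-0.45 ± 0.17), which stood higher in the wild-type LPS array than in the knockout one. The median over the members was -0.10 and over all genes 0.00.

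The responses of the genotypes come from separate arrays and share none. Of the 31 members, 27 had the same sign in both, 87.1%, beside 85.0% of all genes above background on all arrays. Across these 31 genes, which share their libraries and are not replicates, Pearson's r of the 2 responses was 0.96, and across the 15513 genes 0.89. Of the 13 members below their control in wild type, 11 were further below it in knockout, 84.6%, where 54.7% of all genes below their control were. Of the 18 members above it in wild type, 7 were further above it in knockout, 38.9%, where 55.2% of all genes were. Under the other settings the first count ran from 11 of 14 to 11 of 12, and was 16 of 18 with spike-in centring. The counts went by sign alone, and the shares were set side by side and not tested. Among the 11, Pex7, Cat, Agps and Gnpat had responses that differed by -0.03, -0.05, -0.09 and -0.14, each under its spot SD of 0.17. Those of the 13 that were not further below their control in knockout were Abcd3 and Far1, with responses that differed by 0.01 and 0.11.

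**Figure D5:**
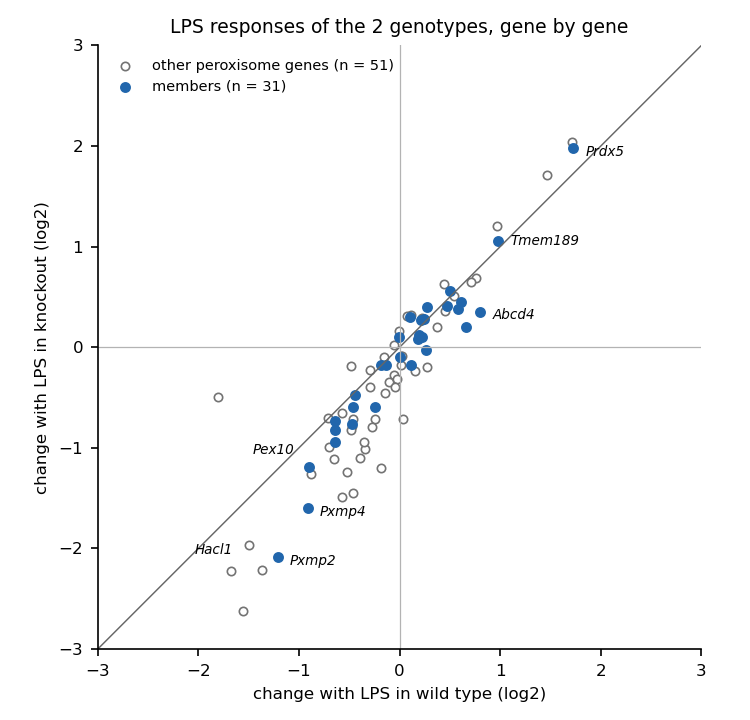
LPS difference in wild type (x axis, log2) against that in knockout (y axis, log2) for the 31 members (filled) and 51 other peroxisome genes above background on all arrays (open); the line marks equal responses. Pxmp2 and Pxmp4 lie below the line at the lower left, Prdx5 and Tmem189 near it at the upper right.

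A list of 70 other peroxisome genes gave the setting of these values. Of these, 57 were tested in wild type and 56 in knockout. With LPS 3 rose and 5 fell by 2-fold in wild type, beside 9.71% and 8.58% of all genes tested. In knockout 4 rose and 15 fell, beside 11% and 12.5%. In the limma fit 5 of 56 rose and 7 fell, beside 11.3% in either direction. No difference between the list and all genes was tested. In fatty acid oxidation, 2 of 16 genes fell in wild type, Acox3 and Hacl1, and 7 of 16 in knockout, where Acaa1a, Acaa1b, Ech1, Nudt19 and Mlycd joined them. The median LPS difference of these 16 genes was -0.43 in wild type and -0.80 in knockout. Other genes past 2-fold in both genotypes were Pla2g6, Hao1 and Ppard, which were higher, and Agmo and Ppargc1b, which were lower. Agmo, the enzyme that cleaves alkyl ether lipids, differed by -1.68 and -2.23. Nbr1, a receptor for the autophagy of peroxisomes, rose in knockout (1.21) and stood at 0.97 in wild type. Lower in 1 genotype by 2-fold were Pparg in wild type (-1.80), and in knockout Pnpla8, Chpt1, Tmem86a, Idh1, Tysnd1 and Xdh. A call in 1 genotype alone does not show that the genotypes differ. The value of Hao1, a liver oxidase, rested on signals of 124 or less with 1 array below background. That of Pnpla8 rested on 1 dim knockout array that its second probe did not share, with 0.55 and 1.08.

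Between genotypes without LPS, 0 of 56 of these genes were higher and 1 lower, Pparg (-2.43), the nuclear receptor for fatty acids. Of all genes tested, 3.08% were higher and 3.89% lower. With LPS 0 of 56 were higher and 4 lower, Pnpla8, Hsd17b4 (-1.17), Tmem86a and Pparg (-1.12), beside 1.86% and 4.39% of all genes. Of these, Hsd17b4 is the targeted gene, and the Pnpla8 value rested on the 1 dim knockout array named above. The difference of the responses passed 2-fold in 3 of 51, Acaa1a (-1.02), Ppargc1b (-1.07) and, upward, Pparg (1.31), beside 2.91% of all genes lower and 1.69% higher.

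Promoter sequence was read from RefSeq, GRCm38.p6, as 250 bases before to 50 after the start of a gene. Of the 33 members 27 matched, with 33 windows. Abcd2, Abcd4, Pex2, Pex19, Pxmp2 and Tmem189 had none. Each of 4 motifs was searched on both strands. The nuclear receptor site AGGTCA was in 3 of the 33 windows, those of Pex11g, Cat and Phyh, and in 16.3% of all 32851 windows of this length. The antioxidant response core TGACNNNGC was in those of Pex7, Pex11g and Acbd5, and in 12.4% of all. The E-box CACGTG was in those of Gnpat and Lonp2, and in 7.15% of all. The NF-kB consensus was in those of Pxmp4 and Gnpat, and in 4.51% of all. A match describes letters and shows no binding. The windows of Prdx5 and Pxmp4 are shown as those of the member with the largest rise and of a member that fell, the NF-kB match in capitals. It begins 46 bases before the start of Pxmp4, while the Prdx5 window holds none of the 4 motifs. They lie on the minus strand at chr19:6910057-6910356 and chr2:154603624-154603923 in GRCm38.p6.
Prdx5 promoter window: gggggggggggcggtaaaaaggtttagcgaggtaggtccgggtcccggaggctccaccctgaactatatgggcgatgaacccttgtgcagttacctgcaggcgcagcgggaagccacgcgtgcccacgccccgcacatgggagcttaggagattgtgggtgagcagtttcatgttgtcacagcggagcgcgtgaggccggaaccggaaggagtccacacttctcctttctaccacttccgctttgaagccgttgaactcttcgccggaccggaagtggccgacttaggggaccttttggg
Pxmp4 promoter window: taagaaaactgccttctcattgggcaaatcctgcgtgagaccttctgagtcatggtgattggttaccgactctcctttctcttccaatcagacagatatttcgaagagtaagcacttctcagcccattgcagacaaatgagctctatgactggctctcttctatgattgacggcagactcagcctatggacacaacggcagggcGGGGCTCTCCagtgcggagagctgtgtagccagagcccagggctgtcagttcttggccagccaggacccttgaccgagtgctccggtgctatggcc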

How the data were processed

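Cy3-labelled RNA of 4 RAW264.7 samples was put on Agilent arrays of design 074809, 1 array a group. The deposited scanner values are linear intensity for each spot; per the file headers, Feature Extraction 10.7.1.1 subtracted the background and removed spatial trends, and the submitters' processing notes name version 9.5.1.1. The deposited flags are of the type other, 0 or 1 a spot. The deposited series table holds linear intensity and was an alternative: on each array at least 52579 of 56605 probes differed by under 0.01 log2 from quantile normalized probe means. Arrays were not normalized to each other in the scanner files.

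Control and outlier spots were left out, spots of a probe averaged, and log2 taken relative to the 75th percentile over probes (303 to 370 before scaling). Array signals give no counts, and the number of arrays limits the precision. Of the probes, 32185 were named by RefSeq accession (GRCm38.p6, names only), and members by the symbol in the file. Probe coordinates are the files' mm9. A gene took 1 probe: a value on all arrays, then above background on at least 1, then the highest mean signal. A gene below background on 1 of 2 arrays was set there to its own signal or the array's lowest one well above background, whichever was higher, as a bound. Limma 3.58.1 in R 4.3.3 (lmFit, eBayes, Benjamini-Hochberg) fitted genotype and LPS to genes above background on at least 2 arrays. The rest was done in Python 3.11.15 with numpy 2.4.6, pandas 2.3.3 and matplotlib 3.10.9. Alternatives were normexp (offset 50), quantile normalization, median centring, centring on 7 spike-in probes, the deposited table, a stricter filter and none, the mean of probes, 1.5-fold and, for the fit, a trended prior.

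The members, the 70 other peroxisome genes, the markers and the motifs were chosen with earlier results of these data known. By the rule for named genes, all members are accounted for, other peroxisome genes are named when past 2-fold, with Hsd17b4, and other probes of a member where they disagree. Some other peroxisome genes are not reported here.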

Additional observations from a re-analysis of the deposited data

Results flagged for a closer look

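For probes of a pair of members, the LPS difference had opposite signs in wild type and knockout and exceeded its spot SD in both. Probes with opposite signs but a smaller difference in either genotype are not listed here. Neither case was tested, since each group had 1 array. For Pex6, the ATPase subunit, the probe used differed by 0.11 in wild type and -0.17 in knockout, a difference of -0.28 with a spot SD of 0.17. For Pex11g, a proliferation factor, a dimmer probe that was not the one used differed by -0.44 in wild type and 0.56 in knockout, a difference of 1.001 with a spot SD of 0.27. The other Pex6 probes gave differences of 0.03 and 0.04, and the probe used for Pex11g gave -0.20.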

How the results depend on the processing

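Of 1240 member differences recomputed under the alternatives, 0 of those past 2-fold turned sign, 63 smaller ones had the other sign (the largest, 0.58, for Pex11g, whose mean of probes gave -0.25 in wild type) and 5 dropped below 2-fold: Pxmp2 in wild type (-0.93) and between genotypes with LPS (-0.66) and Tmem189 in knockout (0.92) with normexp, Tmem189 in knockout with spike-in centring (0.83), and Pxmp4 in knockout with the mean of probes (-0.73). Of 122 counts, 97 stayed within 1.5 times. For members higher with LPS in wild type (1), the count was 5 at 1.5-fold, 3 with the mean of probes and 2 with the deposited table, median centring or quantile normalization. The mean of probes took in probes below background, for Pex11g as for Pex13. Pex13 counted as higher there through a probe below background on all arrays. For those lower (1) it was 6 at 1.5-fold, 3 with spike-in centring, 2 with no filter and 0 with normexp. In knockout, higher (2) became 1 with normexp or spike-in centring, and lower (3) became 9 at 1.5-fold and 5 with spike-in centring. Lower in knockout with LPS (1) became 3 at 1.5-fold and 0 with normexp, and a lower response in knockout (0) became 2 at 1.5-fold. In the limma fit, higher with LPS (2) became 5 with normexp and 4 with the stricter filter or the trended prior, and lower (4) became 2 with the mean of probes or median centring, 7 with normexp, 9 with spike-in centring and 8 with the stricter filter or the trended prior. The cause of these shifts was not tested. In that fit Pex26 was also lost, and Eci2 called, with quantile normalization and the deposited table, at an unchanged count. No paired analysis was possible because each group had 1 array and so no replicate pairs, beyond the genotype term that the limma fit already holds. Dim probes, such as those of Pxmp2 and Pxmp4 with LPS, limit what ratios can show.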
